A study of Mus musculus with 6 samples.

Results

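Hemidesmosome and laminin-332 genes were measured in basal cells of the mouse esophageal epithelium, sorted into a Krt15-positive and a Krt15-negative group of 3 libraries each. The set holds 9 genes, chosen by name: Itga6, Itgb4, Itga3, Col17a1, Dst, Plec, Cd151, Lama3 and Lamb3. Each had 1 row among the 24016 genes of the deposited table. All mice, of both groups, carried the Krt15-CrePR1 transgene and the R26mTomato/mGFP reporter, received 1 mg of RU486 and were sampled after 24 h. Krt15-positive cells were CD29high GFP+ cells, in which a Cre recombinase driven by the Krt15 promoter had switched the reporter to GFP. Krt15-negative cells were CD29high GFP- cells of the same kind of mice. The groups were thus set by the GFP reporter, not by keratin 15 itself, and a basal cell that escaped recombination would be counted as Krt15-negative. CD29 is integrin beta-1, so the sort itself selected on an integrin that pairs with the product of Itga3. The labels name neither the age of the mice nor the number of animals behind a library.

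Hemidesmosomes are the plaques that fix basal keratinocytes to the basement membrane. The integrin alpha-6 beta-4 and the transmembrane collagen XVII bind laminin-332 outside the cell, while plectin and BPAG1e, an isoform of dystonin, tie them to the keratin filaments inside it. Laminin-332 is the epithelial laminin, a trimer that basal keratinocytes secrete themselves and that includes the alpha-3 and beta-3 chains. In stratified epithelia such as the esophagus these genes are expressed mainly in the layer that touches the basement membrane.

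Values are FPKM, fragment counts scaled to transcript length and to library size, as the authors deposited them. The libraries differed in how many genes they detected. From the step that a single fragment makes in the low values, depth was estimated at 27.6 to 34.1 M fragments in the Krt15-positive and 29.1 to 41.7 M in the Krt15-negative libraries. Between 7072 and 9194 genes reached 1 FPKM in the Krt15-positive libraries, against 3247, 6906 and 7934 in Krt15-negative replicates 1 to 3. Krt15-negative replicate 1 stood apart, so each difference of the 9 genes is given with and without it. An exact 0 can be a failed estimate, since Tbp, which every cell uses, was listed at 0 in Krt15-negative replicates 1 and 2. Krt15 mRNA itself was at 3350, 9692 and 2420 FPKM in the Krt15-positive libraries, against 2350, 6784 and 3412 FPKM in the Krt15-negative ones (difference 0.18 on the log2(FPKM + 1) scale, adjusted p = 0.93, limma), so the levels overlapped and both groups contained Krt15 mRNA. The basal keratins Krt5 and Krt14 stood at 376 FPKM or more and 949 FPKM or more in the Krt15-positive libraries, and at 369 or more and 1061 or more in the Krt15-negative ones. Trp63, the transcription factor p63 of basal cells, was at 37.2 FPKM or more in the Krt15-positive libraries, against 0.459, 30.8 and 39.3 FPKM in the Krt15-negative ones. All 11 genes of the basal keratinocyte list, which includes these, had a difference above 0 (median 0.79), against 68.6% of all genes (median 0.63). Of the 11, 2 were higher without overlap, against 8.85% of all genes, and none had an adjusted p below 0.05. Without Krt15-negative replicate 1, 8 of the 11 were above 0 (median 0.25), against 51.3% of all genes (median 0.03). In bulk libraries such as these, fewer cells of a type and less RNA per cell cannot be told apart.

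No hemidesmosome or laminin-332 gene passed the test between Krt15-positive and Krt15-negative cells, and 8 of the 9 had a higher mean log2 level in Krt15-positive cells. Itga3 and Col17a1 were higher in every Krt15-positive library than in any Krt15-negative one, by 2.05 and 1.10 on the log2(FPKM + 1) scale. Dst and Itgb4 had almost equal means in both groups. The other 5 genes, Itga6, Plec, Cd151, Lama3 and Lamb3, overlapped between the groups. With limma across 9423 genes, 0 of the 9 had an adjusted p below 0.05, where the share of all genes called was also 0%. At an unadjusted p below 0.05 there were 0 of the 9 genes and 370 of all genes, 300 of them higher (3.18%) and 70 lower (0.743%). A difference above 0 was found for 68.6% of all genes, with a median over all genes of 0.63, so 8 of 9 stands against a background already shifted upward. The median difference of the 9 genes was 1.10. Without Krt15-negative replicate 1 it was 0.58, with 8 of 9 above 0, and the median of all genes was 0.03, with 51.3% above 0. The 2 genes without overlap compare with 8.85% of all genes higher without overlap, and without Krt15-negative replicate 1 there were again 2, against 10.8%. Smaller groups overlap less often by construction: 3 of the 9 genes lay higher without overlap when Krt15-positive replicate 1 (16.3% of all genes), Krt15-positive replicate 2 (11.8%) or Krt15-negative replicate 3 (19.2%) was left out. The count was 4 without Krt15-positive replicate 3 (15.1%), 5 without Krt15-negative replicate 2 (18.4%) and 3 without replicate 1 of both groups (19.1%). With all 6 libraries, none of the 9 lay lower without overlap, against 2.44% of all genes. With quantile normalization 4 of the 9 differences lay above 0, against 51.8% of all genes, and their median was -0.16. All differences below are Krt15-positive minus Krt15-negative on the log2(FPKM + 1) scale, and each adjusted p is from this limma fit.

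**Figure D1:**
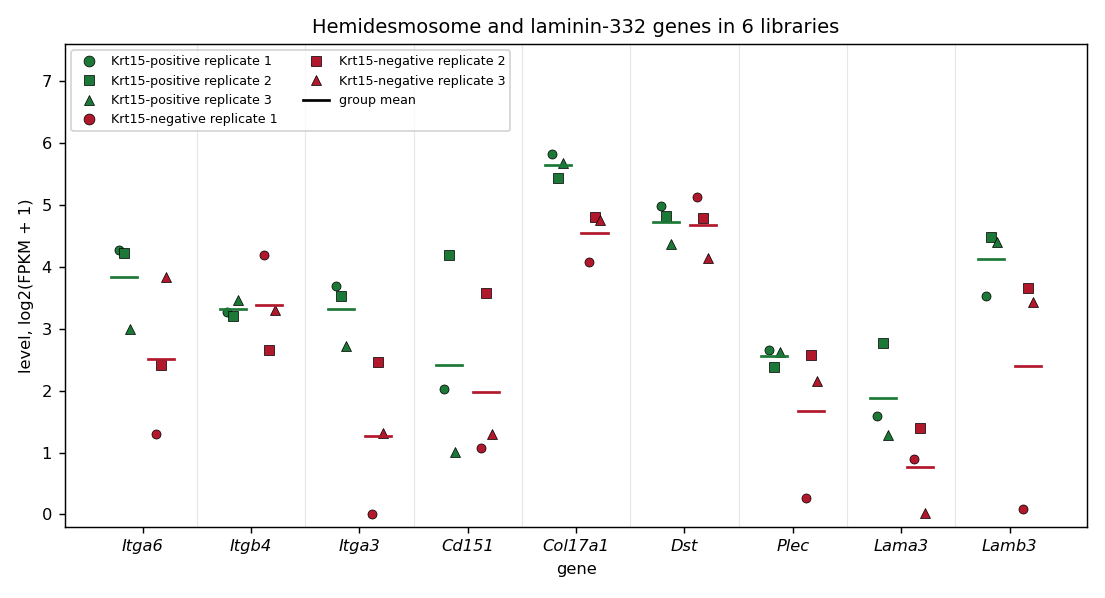
Level of each gene as log2(FPKM + 1) on the vertical axis, by gene on the horizontal axis, with 1 point per library, Krt15-positive libraries in green left of Krt15-negative ones in red, and a bar at the mean of the log values. The 3 Krt15-positive points lie above all Krt15-negative points for Itga3 and Col17a1, and Krt15-negative replicate 1 (red circle) is the lowest point for Itga6, Itga3, Col17a1, Plec and Lamb3.

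By level, averaged over the 6 libraries on the log2 scale, the order was Col17a1, Dst, Itgb4, Lamb3, Itga6, Itga3, Cd151, Plec and Lama3. FPKM is a value per length, so these levels can be set side by side, but each depends on the transcript length assumed. That length is least certain for genes with transcripts of unlike length, such as Dst, whose annotated coding transcripts run from 0.776 to 23.279 kb. Col17a1 averaged 36.1 ± 15.6 FPKM, Dst 25.7 ± 6.50, Itgb4 9.71 ± 3.98 and Lama3 1.95 ± 2.00 (SD, n = 6). The step between Dst and Itgb4 was the clearest, with Dst above Itgb4 in 6 of 6 libraries and a mean log2 gap of 1.35 ± 0.53 (SD, n = 6). Every other pair of neighbours in the order had a gap smaller than its own SD over the libraries. Col17a1 lay above Dst in 5 of 6 libraries, and Itgb4 above Lamb3 in 1 of 6, the exception being Krt15-negative replicate 1, where Lamb3 was near 0. The pooled order held in neither group: in the Krt15-positive libraries Lamb3 (17.3 FPKM) and Itga6 (14.3 FPKM) averaged above Itgb4 (8.96 FPKM), and in the Krt15-negative ones Dst (25.7 FPKM) averaged above Col17a1 (22.9 FPKM).

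Itga6 encodes the alpha-6 chain, which pairs with beta-4 in the hemidesmosome. Itga6 had 18.3, 17.7 and 6.97 FPKM in the Krt15-positive libraries, against 1.46, 4.30 and 13.3 FPKM in the Krt15-negative ones. The groups overlapped, because Krt15-negative replicate 3 lay above Krt15-positive replicate 3. The difference was 1.32 (SE 1.16, 95% CI -1.22 to 3.86, adjusted p = 0.79) and 0.71 without Krt15-negative replicate 1.

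Itgb4 encodes the beta-4 chain, whose long tail binds plectin inside the cell. Its values were 8.62, 8.25 and 10.01 FPKM in the Krt15-positive libraries, against 17.2, 5.34 and 8.85 FPKM in the Krt15-negative ones. The Krt15-positive values lay close together and within the range of the Krt15-negative ones, whose highest value was that of replicate 1. The difference was -0.07 (SE 1.07, 95% CI -2.42 to 2.28, adjusted p = 0.99), and it turned to 0.33 without Krt15-negative replicate 1. Itgb4 was thus highest in the very library in which Itga6 was lowest. An opposite-strand gene shares 7.66% of the exon bases of Itgb4 in the annotation, and the library chemistry does not mark strand.

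Itga3 encodes the alpha-3 chain, which pairs with integrin beta-1 as a laminin-332 receptor outside the hemidesmosome. Itga3 reached 11.9, 10.6 and 5.60 FPKM in the Krt15-positive libraries, against 4.52 and 1.5 FPKM in Krt15-negative replicates 2 and 3, and it was listed at 0 in Krt15-negative replicate 1. Every Krt15-positive library lay above every Krt15-negative one. Even the 2 closest, Krt15-positive replicate 3 and Krt15-negative replicate 2, were 5.60 and 4.52 FPKM, so the gap between the groups is narrow. The difference was 2.05 (SE 1.14, 95% CI -0.44 to 4.54, adjusted p = 0.79), the largest of the 9, and 1.42 without Krt15-negative replicate 1 (adjusted p = 0.89). With library weights it was 1.95, with an unadjusted p of 0.040 and an adjusted p of 0.54 (limma). In that weighted fit 495 of 9423 genes were higher at an unadjusted p below 0.05, and 348 were lower. The weights were 0.23, 0.66 and 3.20 for Krt15-negative replicates 1 to 3, so the weighted estimate for Itga3 leans on replicate 3. Under all scalings tried Itga3 stayed above the median of all genes, by 1.42 as deposited, 1.56 with upper-quartile scaling, 1.48 with median-of-ratios scaling and 1.53 with quantile normalization.

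Cd151 encodes a tetraspanin that associates with the laminin-binding integrins at the cell base. Cd151 had 3.05, 17.2 and 1.02 FPKM in the Krt15-positive libraries, against 1.10, 10.95 and 1.45 FPKM in the Krt15-negative ones. Both groups had their highest value in replicate 2 and overlapped otherwise. The difference was 0.42 (SE 1.26, 95% CI -2.34 to 3.19, adjusted p = 0.94). It turned to -0.46 without Krt15-positive replicate 2, to -0.03 without Krt15-negative replicate 1 and to -0.45 with quantile normalization.

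Col17a1 encodes collagen XVII, also called BP180, the transmembrane collagen of the hemidesmosome. Its level was 55.8, 42.2 and 49.95 FPKM in the Krt15-positive libraries, against 15.8, 26.9 and 26.0 FPKM in the Krt15-negative ones. The lowest Krt15-positive library was above the highest Krt15-negative one, and the group means were 49.3 ± 6.80 and 22.9 ± 6.15 FPKM (SD, n = 3 each), a ratio of 2.15. The difference was 1.10 (SE 0.89, 95% CI -0.85 to 3.06, adjusted p = 0.79). It was 0.87 without Krt15-negative replicate 1, and between 0.63 and 1.23 over the other scalings and the libraries left out. Without a filter on low values it was the only one of the 9 with an unadjusted p below 0.05 (0.0275, adjusted p = 0.75, limma). At that setting 483 of 14385 genes were higher at an unadjusted p below 0.05, and 89 were lower. The spread between the 3 libraries of Col17a1, 0.20 on the log2 scale in Krt15-positive and 0.41 in Krt15-negative cells, was smaller than its difference, while the trend that limma fits over all genes of that level sets a larger error. Ranked within each library, which needs no scaling between libraries, Col17a1 lay above 85.0%, 77.5% and 83.0% of the tested genes in the Krt15-positive libraries, against 78.3%, 70.6% and 74.0% in the Krt15-negative ones. These ranks overlapped only between Krt15-positive replicate 2 and Krt15-negative replicate 1. The rank of a gene in Krt15-negative replicate 1 is raised by the many genes that are near 0 there.

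Dst encodes dystonin, whose epithelial isoform BPAG1e is a plaque protein of the hemidesmosome. Dst had 30.5, 27.1 and 19.5 FPKM in the Krt15-positive libraries, against 33.8, 26.6 and 16.7 FPKM in the Krt15-negative ones. The groups covered the same range, with means of 25.7 ± 5.62 and 25.7 ± 8.60 FPKM (SD, n = 3 each). The difference was 0.03 (SE 0.95, 95% CI -2.04 to 2.10, adjusted p = 0.99), an interval that leaves room for changes of either sign, and 0.25 without Krt15-negative replicate 1. With upper-quartile scaling it turned to -0.42, with median-of-ratios scaling to -0.44 and with quantile normalization to -0.16. Dst has many transcripts, from an actin-binding neuronal form to the epithelial one, and a value per gene does not separate them.

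Plec encodes plectin, the plakin that links integrin beta-4 to keratin filaments. Values of 5.32, 4.20 and 5.15 FPKM were found in the Krt15-positive libraries, against 0.202, 4.94 and 3.46 FPKM in the Krt15-negative ones. Only Krt15-negative replicate 1 lay far from the other 5 libraries. The difference was 0.89 (SE 1.11, 95% CI -1.54 to 3.32, adjusted p = 0.83), 0.19 without Krt15-negative replicate 1, and it turned to -0.44 with quantile normalization. Parp10, a neighbour that shares 1.13% of the exon bases of Plec on the same strand, stood at 2.49 to 4.92 FPKM in the Krt15-positive libraries, against 30.1, 3.77 and 5.13 FPKM in the Krt15-negative ones. How much reads shared between these 2 genes add to either value was not tested.

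The 250 bases before the annotated start are shown for the upstream start of Itga3 and the start of Col17a1, the 2 genes without overlap between the groups. For Dst, whose mean was the same in both groups, they are shown for the 2 starts that the source of sequences held. Dst has 14 coding transcripts in the annotation used for lengths. None of its transcripts there held, near its own start, the first 30 bases after either of these 2 starts. The sequences are from RefSeq on the build GRCm38.p6, which differs from the mm9 build of the submitters' notes, and the table held a promoter for 5 of the 9 genes. Capitals mark matches, on either strand, to a GC box (GGGCGG) or a TATA box (TATAAA).
Itga3, chr11:95076715-95076964, minus strand: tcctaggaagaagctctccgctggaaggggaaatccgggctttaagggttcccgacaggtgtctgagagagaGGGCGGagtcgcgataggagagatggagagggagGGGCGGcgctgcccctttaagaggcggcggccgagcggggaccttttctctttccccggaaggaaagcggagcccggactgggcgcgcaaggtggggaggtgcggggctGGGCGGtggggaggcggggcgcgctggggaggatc
Col17a1, chr19:47692043-47692292, minus strand: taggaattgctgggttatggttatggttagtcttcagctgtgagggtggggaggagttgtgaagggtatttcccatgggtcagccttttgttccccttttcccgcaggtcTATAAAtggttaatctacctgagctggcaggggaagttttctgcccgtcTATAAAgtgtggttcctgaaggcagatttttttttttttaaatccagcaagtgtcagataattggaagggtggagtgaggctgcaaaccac
Dst, chr1:34011345-34011594, plus strand: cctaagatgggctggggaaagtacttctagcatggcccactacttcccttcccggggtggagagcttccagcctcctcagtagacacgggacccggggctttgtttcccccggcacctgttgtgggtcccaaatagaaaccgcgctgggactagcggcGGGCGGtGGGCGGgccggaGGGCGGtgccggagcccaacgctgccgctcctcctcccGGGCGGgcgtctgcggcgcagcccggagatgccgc
Dst, chr1:34160010-34160259, plus strand: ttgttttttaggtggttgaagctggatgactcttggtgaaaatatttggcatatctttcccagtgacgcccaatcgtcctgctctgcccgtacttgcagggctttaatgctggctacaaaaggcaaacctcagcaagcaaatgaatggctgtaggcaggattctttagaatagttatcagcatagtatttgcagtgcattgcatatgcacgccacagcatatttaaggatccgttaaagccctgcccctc
The Itga3 window held 3 GC boxes and had a GC content of 67.6%. The first Dst window held 4 GC boxes, with a GC content of 68.8%, and the second held none, with 45.2%. The Col17a1 window held 2 TATA boxes and no GC box, with a GC content of 46.0%. Over 32851 annotated windows of the same length, 32.7% held a GC box, 12.4% a TATA box and the median GC content was 52.4%. An AP-1 motif (TGANTCA, present in 6.75% of all windows) was found in none of these 4 windows, and neither was a half-site of the p53 family, the group that includes p63 (7.13% of all windows). No 2 matches overlapped in these windows, and a match is only a match of letters.

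Lama3 encodes the alpha-3 chain, which carries the sites that integrins bind. Lama3 was low, with 2.00, 5.78 and 1.43 FPKM in the Krt15-positive libraries, against 0.855, 1.64 and 0.014 FPKM in the Krt15-negative ones. The groups overlapped only through Krt15-negative replicate 2, which lay between Krt15-positive replicates 3 and 1. The difference was 1.10 (SE 0.96, 95% CI -1.01 to 3.22, adjusted p = 0.79) and 1.17 without Krt15-negative replicate 1, and it turned to -0.35 with quantile normalization. In Krt15-negative replicate 3 the value corresponds to about 5.9 fragments, taking the longest annotated transcript, against 452 or more in the Krt15-positive libraries.

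Lamb3 encodes the beta-3 chain. Its level reached 10.5, 21.3 and 20.0 FPKM in the Krt15-positive libraries, against 0.068, 11.7 and 9.79 FPKM in the Krt15-negative ones. The groups overlapped only because Krt15-negative replicate 2 exceeded Krt15-positive replicate 1. The difference was 1.74 (SE 1.26, 95% CI -1.02 to 4.49, adjusted p = 0.79), and it was 0.58 without Krt15-negative replicate 1, where about 9.6 fragments were estimated for Lamb3. Ranked within each library, Lamb3 lay on average above 65.3% of the tested genes in the Krt15-positive libraries, against 57.0% in the Krt15-negative ones. By this mean rank Itga6, Itga3 and Col17a1 were also higher in Krt15-positive cells, while the other 5 genes were lower there, with 52.6% against 59.2% for Itgb4, 72.4% against 73.5% for Dst, 39.7% against 46.6% for Plec, 40.8% against 48.4% for Cd151 and 30.6% against 35.9% for Lama3. These 5 had their highest rank of any library in Krt15-negative replicate 1, at 78.65%, 82.72%, 60.72%, 66.45% and 65.53%. In Krt15-negative replicates 2 and 3 they were at 41.6% and 57.3%, 70.3% and 67.6%, 40.6% and 38.6%, 53.2% and 25.4%, and 31.7% and 10.5%. Their lower mean ranks thus rest on replicate 1, whose ranks the many genes near 0 raise. Measured per length, Lama3 was below Lamb3 in 5 of 6 libraries.

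**Figure D2:**
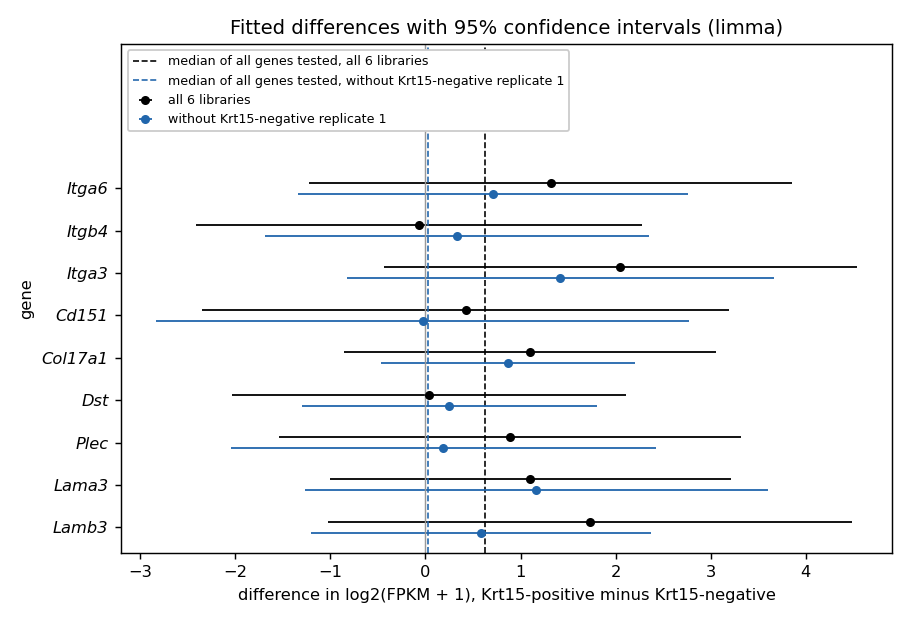
Differences in log2(FPKM + 1), Krt15-positive minus Krt15-negative, on the horizontal axis for each gene on the vertical axis, with 95% confidence intervals from limma, in black for all 6 libraries and in blue without Krt15-negative replicate 1; dashed lines mark the median of all genes tested (0.63 and 0.03). All 18 intervals include 0, and 4 of the 9 estimates in black lie within 0.5 of the black dashed line.

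Within a library, a log2 ratio of (FPKM + 1) depends on the scaling between libraries only through the added 1, which weighs most at low levels. For 4 pairs of partner genes such ratios were compared, with exact 2-sided permutation tests over the libraries. With 3 libraries against 3 such a test cannot go below p = 0.10, and none of the 4 ratios passed (adjusted p = 0.90 for each, exact permutation test, adjusted over the 6 ratios of the design). Itga6 over Itgb4, the 2 chains of the hemidesmosome integrin, was 1.01, 1.01 and -0.47 in the Krt15-positive libraries, against -2.89, -0.26 and 0.54 in the Krt15-negative ones. The groups overlapped, and the difference of 1.39 (exact permutation p = 0.30) was 0.38 without Krt15-negative replicate 1. Itga3 over Itgb1, the chains of the other laminin receptor, was -0.93, -1.94 and -0.84 in the Krt15-positive libraries, against -1.02, -1.98 and -2.83 in the Krt15-negative ones, a difference of 0.71 (exact permutation p = 0.20). Leaving out Krt15-negative replicate 1 gave 1.17 and leaving out Krt15-negative replicate 3 gave 0.26, and it was 0.16 with a pseudocount of 5 and 1.71 with one of 0.1. Itgb1 itself stood at 23.4, 43.3 and 10.8 FPKM in the Krt15-positive libraries, against 1.03, 20.7 and 16.7 FPKM in the Krt15-negative ones. With Itga3 listed at 0, the ratio of -1.02 in Krt15-negative replicate 1 reflects only Itgb1 and the added 1.

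Among the laminin chains, Lama3 over Lamb3 was -1.94, -1.72 and -3.11 in the Krt15-positive libraries, against 0.80, -2.27 and -3.41 in the Krt15-negative ones. Krt15-negative replicate 1, in which both levels were below 1 FPKM, was the only library with a ratio above 0. The difference was -0.63 (exact permutation p = 0.90), and it turned to 0.58 without that library. Dst over Plec, the 2 plaque plakins, was 2.32, 2.43 and 1.74 in the Krt15-positive libraries, against 4.85, 2.21 and 1.99 in the Krt15-negative ones. Outside Krt15-negative replicate 1 this ratio lay between 1.74 and 2.43 in every library, and the difference of -0.85 (exact permutation p = 0.60) turned to 0.06 without it.

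**Figure D3:**
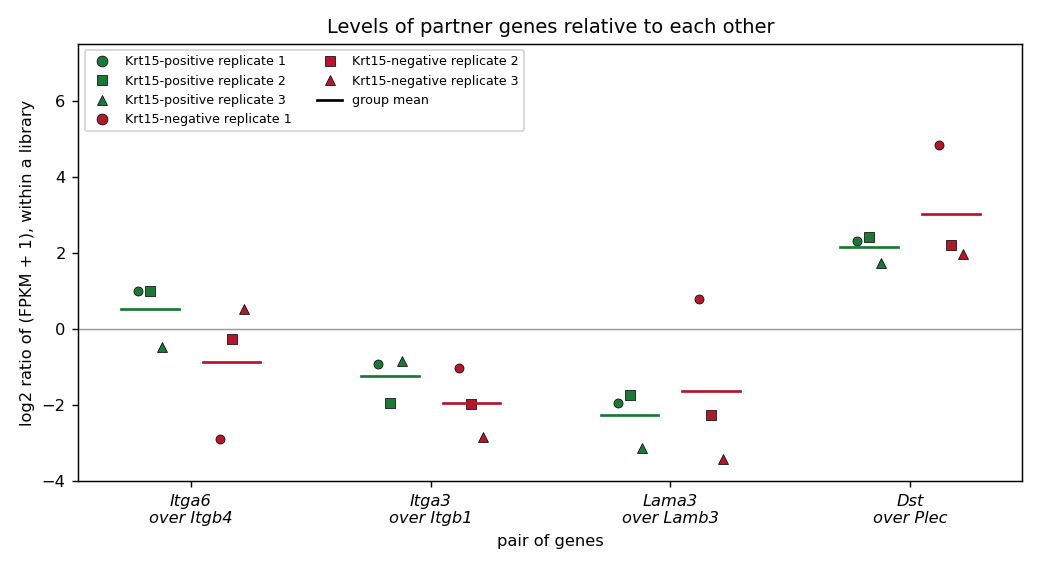
Log2 ratio of (FPKM + 1) of 2 partner genes within each library on the vertical axis, by pair on the horizontal axis, Krt15-positive libraries in green left of Krt15-negative ones in red, with bars at the group means. Krt15-negative replicate 1 (red circle) gives the extreme value for Itga6 over Itgb4 (-2.89), Lama3 over Lamb3 (0.80) and Dst over Plec (4.85).

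The median level of the 9 genes ordered the 6 libraries as the number of detected genes did. The median of the 9 was 3.52, 4.19 and 2.99 on the log2(FPKM + 1) scale in the Krt15-positive libraries, with 8466, 9194 and 7072 genes at 1 FPKM or more. In the Krt15-negative libraries it was 1.07, 2.66 and 3.30, with 3247, 6906 and 7934 such genes. From the lowest library to the highest, this median and the number of genes run in the same order, and the groups interleave. The mean of the 9 levels, each standardized over the 6 libraries, was 0.50, 0.71 and 0.08 in the Krt15-positive libraries. In the Krt15-negative ones it was -0.80, -0.03 and -0.46. The 9 genes summed to 120 to 154 FPKM, against 70.5 to 96.9 FPKM. Col17a1, itself without overlap, was the largest part of that sum in each Krt15-positive library, at 42.2 FPKM or more, against at most 26.9 FPKM. By that mean and that sum the groups did not overlap. How far this rests on Col17a1 was not tested, and no share over all genes is given beside it. Neither the mean nor the sum followed the order of detection. The median over all tested genes was 2.89, 3.54 and 3.02 in the Krt15-positive libraries, against 0.02, 3.36 and 2.83 in the Krt15-negative ones, and it did not follow that order throughout. The part of detection in the differences of the 9 genes was not tested.

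**Figure D4:**
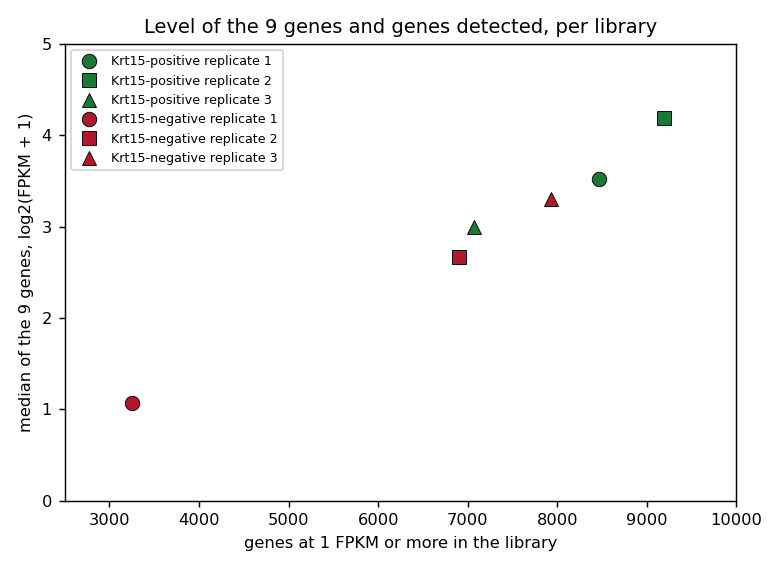
Median level of the 9 genes as log2(FPKM + 1) on the vertical axis against the number of genes at 1 FPKM or more on the horizontal axis, 1 point per library, Krt15-positive in green and Krt15-negative in red. Krt15-negative replicate 1 lies at 3247 genes and a median of 1.07, far from the other 5 libraries, which lie between 6906 and 9194 genes and between 2.66 and 4.19.

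The genes whose course over the 6 libraries was most like the mean of the 9 standardized members were Atpaf1, Slc1a4, Plk2, Rassf9 and Ezh2, with Pearson r between 0.960 and 0.982 among 5665 candidates. The r values rest on 6 libraries that share depth and detection, and with so many candidates high values are selected. Atpaf1, an assembly factor of the mitochondrial ATP synthase, stood at 8.39, 12.9 and 5.77 FPKM in the Krt15-positive libraries, against 0.27, 3.34 and 2.07 FPKM in the Krt15-negative ones. Ezh2, the histone methyltransferase of the Polycomb complex, stood at 9.65, 9.86 and 6.87 FPKM, against 0.28, 5.26 and 1.58 FPKM in the Krt15-negative libraries.

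Other genes of the basal adhesion machinery were read from 8 lists, and none of their tested members had an adjusted p below 0.05 in either direction. Of 8 listed genes of other laminin chains, 2 were tested, Lamb2 and Lamc1. Lamb2, a beta chain of other laminins, had 0.859, 3.84 and 3.74 FPKM in the Krt15-positive libraries, against 0, 1.58 and 1.24 FPKM in the Krt15-negative ones (difference 0.96, adjusted p = 0.80). Lamc1, the gamma-1 chain of the more widely expressed laminins, differed in the opposite direction, at 0.515, 1.65 and 0.0042 FPKM in the Krt15-positive libraries, against 12.2, 4.59 and 2.66 FPKM in the Krt15-negative ones. All Krt15-positive values lay below all Krt15-negative ones, as for 2.44% of all genes, with a difference of -2.02 (SE 1.05, adjusted p = 0.79). Lamc1 reached the mean of 1 FPKM only with its Krt15-negative values. Of the 16 other basement membrane genes 4 were tested, of which Agrn, Col4a5 and Grip1 were higher without overlap and Nid1 lower without overlap, against 8.85% and 2.44% of all genes. Col4a5, Grip1 and Nid1, but not Agrn, reached the mean of 1 FPKM only with the values of their higher group, which favours a lack of overlap. Col4a5 was at 0.173, 1.23 and 5.71 FPKM in the Krt15-positive libraries, against 0.016 FPKM or less, so its separation rests on values near 0, as does that of Nid1. Agrn, the proteoglycan agrin, stood at 5.64, 5.22 and 8.63 FPKM in the Krt15-positive libraries, against 0, 3.83 and 1.19 FPKM in the Krt15-negative ones (difference 1.74, adjusted p = 0.79). Nid1, nidogen-1, which bridges laminin and collagen IV networks, had listed values of 0, 0 and 0.0053 FPKM in the Krt15-positive libraries, against 0.017, 5.79 and 9.0 FPKM in the Krt15-negative ones (difference -2.03, adjusted p = 0.79).

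Of the 8 other epithelial integrin chains 3 were tested, all with a difference above 0 and a median of 1.03, or 0.25 without Krt15-negative replicate 1. Of the 5 other plakins, 4 had a difference above 0 and the median was 1.52, or 1.22 without Krt15-negative replicate 1. Eppk1, epiplakin, was the plakin without overlap, at 4.68, 3.31 and 4.92 FPKM in the Krt15-positive libraries, against 0.203, 0.377 and 2.68 FPKM in the Krt15-negative ones (difference 1.52, adjusted p = 0.79). Of the 9 other tetraspanins 7 had a difference above 0, with a median of 0.26, or 1.20 without Krt15-negative replicate 1. Tspan4 had an unadjusted p below 0.05, at 3.21, 8.08 and 23.6 FPKM in the Krt15-positive libraries, against 0, 0.058 and 3.14 FPKM in the Krt15-negative ones (difference 2.58, adjusted p = 0.79). Cd9, the most abundant tetraspanin of the list, stood at 1845, 1393 and 2011 FPKM in the Krt15-positive libraries, against 820, 1957 and 1873 FPKM in the Krt15-negative ones. The list of integrin adaptors, which also holds the keratins Krt5 and Krt14 (12 tested, 10 above 0, median 0.47), the processing enzymes of laminin-332 and collagen XVII (6 of 10 tested, 5 above 0, median 0.71) and the regulators of hemidesmosomes (9 of 11 tested, 8 above 0, median 0.88) lay near or slightly above the median of all genes. Without Krt15-negative replicate 1 their medians were 0.14, -0.02 and 0.25.

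Markers of other cells were read beside these values. Of the 9 fibroblast markers 8 were tested, 7 had a difference below 0, and 6 were lower in every Krt15-positive library than in any Krt15-negative one. Over all genes 2.44% were lower without overlap, while these 6 markers, apart from Vim, reached the mean of 1 FPKM only with their Krt15-negative values. Those at an unadjusted p below 0.05 (0.743% of all genes in that direction) were Mfap5, Dpt, Vim, Col3a1, Col1a1 and Col1a2, each at an adjusted p of 0.58 or more. Dpt, dermatopontin of the connective tissue matrix, had 0.019 FPKM or less in every Krt15-positive library, against 30.7, 28.3 and 46.6 FPKM in the Krt15-negative ones. Vim, the filament vimentin, had 0, 3.51 and 0.074 FPKM in the Krt15-positive libraries, against 72.5, 43.2 and 35.5 FPKM in the Krt15-negative ones. The fibroblast markers' summed level was 71.3 to 179 FPKM in the Krt15-positive libraries, against 176 to 788 FPKM in the Krt15-negative ones. Dcn, the matrix proteoglycan decorin, made up most of the Krt15-positive sums, with 167, 176 and 71.1 FPKM, against 13.9, 267 and 457 FPKM in the Krt15-negative libraries (difference 0.07), and no other fibroblast marker exceeded 3.51 FPKM in a Krt15-positive library. The 8 leukocyte markers summed to 0.86 to 52.1 FPKM, against 267 to 715 FPKM in the Krt15-negative libraries, with Cd207 at 0 in all 6. Tyrobp, a signalling adaptor of myeloid cells, was the leukocyte marker at an unadjusted p below 0.05, with an adjusted p of 0.79. Endothelial cells express Itga6 too, and Schwann cells Itgb4. The 8 endothelial markers summed to at most 4.52 FPKM in the Krt15-positive libraries and at most 4.05 FPKM in the Krt15-negative ones, with Cdh5, Emcn and Cldn5 at 0 in all 6. Of 5 Schwann cell markers Sox10, S100b and Ncam1 were at 0 in all 6 libraries, and the summed level of 2.22 to 8.22 FPKM in the Krt15-positive libraries, against 0 to 6.92 FPKM in the Krt15-negative ones, was mostly Mbp, myelin basic protein. Of the 7 muscle markers Myh11 was at 0 in all 6, and the summed level was at most 10.5 FPKM in the Krt15-positive and 7.20 FPKM in the Krt15-negative libraries. Of the 10 suprabasal keratinocyte markers 9 were tested, with 6 differences above 0 and a median of 0.25. They summed to 8944 to 53158 FPKM in the Krt15-positive libraries, against 9291 to 37976 FPKM in the Krt15-negative ones. Krtdap made up most of every sum except that of Krt15-negative replicate 3. It had 7254, 13640 and 41287 FPKM in the Krt15-positive libraries, against 33634, 22532 and a listed 0 in the Krt15-negative ones. Krt13, a keratin of the layers above the basal one, was at 847, 3212 and 3771 FPKM in the Krt15-positive libraries, against 1066, 3452 and 3278 FPKM in the Krt15-negative ones, so cells sorted as basal also held suprabasal transcripts in every library. The part of suprabasal cells, fibroblasts and leukocytes in the differences of the 9 genes was not tested.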

How the data were processed

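cDNA was made directly from sorted cells with the SMART-Seq v4 kit, per the labels' protocols, which does not mark strand. The values are FPKM as the authors deposited them; the table's title says counts, but the values are not whole. The submitters' processing notes name STAR 2.5, Cufflinks 2.2.1 and DESeq2 as tools and mm9 as the build. Which annotation served is not given in the sources used here.

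Of 24043 rows, 27 with date-like symbols were left out. The 9423 genes whose FPKM averaged 1 or more, among them all 9 members, were tested as log2(FPKM + 1) in limma 3.58.1 (R 4.3.3), using a trended variance, group as the sole term, all 6 libraries and Benjamini-Hochberg adjustment. This scale understates changes of low genes. The sample names share an identifier between the Krt15-positive and Krt15-negative library of each replicate number, and the labels do not say whether it marks a mouse or a sort, so the spread behind the p-values may be partly technical.

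Depth was estimated from 2172 single-transcript genes of 1500 bases or more, as the inverse of the value that 1 fragment gives. It is approximate, and no counting intervals are given. The fit was tested on simulated data. Members and lists were chosen with earlier results of these data known. Named genes were the 9 members, partners in the ratios, list members of smallest p (up to 3 a list) or unadjusted p below 0.05, and the 5 genes of most similar course among those averaging 5 FPKM or more; Grip1, Cd9 and Parp10 were added after their values were seen, and so were the keratins and the markers at 0. All 159 list symbols used had a row. A few planned results, among them 2 of the 6 ratios, are not reported here.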

Additional observations from a re-analysis of the deposited data

How the results depend on the processing

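None of the 9 genes passed the adjusted test under any of the 16 alternatives tried (other pseudocounts, filters, scalings, library weights, the replicate number as a block, and libraries left out); Plec and Lama3 were not tested where a mean of at least 5 FPKM was required. Over all genes, 0 were called as deposited, 8 with library weights, all lower in Krt15-positive cells, and 0 to 1 with 1 library left out, the 1 being without Krt15-negative replicate 2. The median difference of the 9 genes, 1.10, was -0.16 with quantile normalization, with 4 of 9 above 0 against 51.8% of all genes, and it lay between 0.58 and 1.26 with 1 library left out. It was 0.44 with a pseudocount of 5, 1.499 with one of 0.1 and 0.49 without replicate 1 of both groups. The median of all genes at these settings was 0.28, 1.20 and 0.11. With upper-quartile scaling the median of the 9 genes was 0.74, and with median-of-ratios scaling it was 0.71. The median of all genes was 0.48 with upper-quartile scaling, 0.41 with median-of-ratios scaling, 0.04 with quantile normalization and 0.63 as deposited. Itga6, Itga3, Col17a1 and Lamb3 kept a difference above 0 in all 16. Sign changed for Itgb4 (0.050 with library weights, 0.35 without replicate 1 of both groups, -0.43 to 0.33 with 1 library left out), Dst (-0.42 with upper-quartile scaling, -0.44 with median-of-ratios scaling, -0.16 with quantile normalization, -0.24 to 0.25 with 1 library left out), Plec (-0.44), Cd151 (-0.45) and Lama3 (-0.35), the last 3 with quantile normalization; Cd151 ran from -0.46 to 1.22 with 1 library left out. The cause was not tested. Among the ratios, Lama3 over Lamb3 was 0.42 without replicate 1 of both groups and -1.52 to 0.58 with 1 library left out and Dst over Plec -1.37 to 0.063.

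The Krt15-positive and Krt15-negative libraries of each replicate number share an identifier in their names, which the labels do not explain, so the numbers were not taken as pairing. Same-numbered libraries deviated together with correlations of 0.13, 0.17 and 0.0089, and 2 of 3 Krt15-positive libraries correlated best with their own number. With the replicate block 0 genes were called and the median difference of the 9 genes stayed at 1.10, with 0 of 9 called. Between libraries of the same number, Itga3, Col17a1, Lama3 and Lamb3 were higher in Krt15-positive cells in 3 of 3 comparisons and the other 5 genes in 2 of 3. The share of all genes with such results was not counted, while 68.6% of all genes had a difference above 0 in the main fit. The lowest values, Lamb3 in Krt15-negative replicate 1 and Lama3 in Krt15-negative replicate 3, rest on an estimated 9.6 and 5.9 fragments and are not firm levels.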
